A study of Mus musculus with 11 samples.

Results

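Transcripts of 10 genes of the sebaceous gland lineage were followed through epidermal cells sorted from mouse back skin. The genes are Pparg, Mc5r, Elovl3, Scd3, Awat2, Dgat2, Soat1, Plin2, Cidea and Mgst1, 10 of the 55536 Ensembl genes with counts in the deposited data. They were chosen by name from their known roles in sebocytes, with earlier results of these data already known. All 10 were found by their Ensembl identifiers, and all 10 passed the filter on low counts that left 20307 genes for testing.

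The libraries came from male CD4Cre R26-tdT mice on a C57Bl6/N background, in which Cre under Cd4 regulatory elements switches on the red reporter tdT from the Rosa26 locus in cells with present or past Cre activity and in their progeny, T cells included. All 4 groups were sorted by flow cytometry from these mice, so all carry both transgenes. They are tdT+CD49f+CD34+ cells (3 libraries), tdTnegCD49f+CD34+ cells (3), tdT+CD49f+CD34+SCA-1+ cells (3) and tdTnegCD49f+CD34+SCA-1+ cells (2), 11 libraries in all, each of cells pooled from 2 mice, with replicate 1 at 29 weeks and replicates 2 and 3 at 32 weeks. CD49f marks basal epidermal cells, CD34 the hair follicle bulge and SCA-1 the infundibulum and interfollicular epidermis. The study asked how CD4-lineage cells differ from their neighbours within each sort; no group was sorted for the sebaceous gland.

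Sebocytes are lipid-filled epithelial cells of the pilosebaceous unit that renew from basal progenitors, fill with droplets and burst to release sebum onto the hair. Their maturation depends on the nuclear receptor PPARγ, and their lipids are made in steps: fatty acids are elongated and desaturated, joined to glycerol, cholesterol or long-chain alcohols as triglycerides, sterol esters and waxes, and stored in droplets coated with dedicated proteins. Several of these proteins also work in fat cells and the liver, where Pparg, Dgat2, Plin2 and Cidea are well known.

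Some libraries stood apart before any member was considered. Totals ran from 17409131 to 46542177 counts, and the tdTnegCD49f+CD34+ libraries were the deepest. Transcripts of 10 hepatocyte genes, a list written after the data had been seen, summed to between 10691 and 22385 CPM (counts scaled to the library size after TMM normalisation) in tdT+CD49f+CD34+ replicates 1 and 2 and tdTnegCD49f+CD34+ replicate 2, and to between 7.07 and 80.6 in the other 8 libraries. Alb, the serum albumin of hepatocytes, stood at 4547 to 8521 CPM in these 3 libraries and at 3.16 to 37.2 in the others. The same 3 libraries, labelled male, held Xist, the RNA of the inactive X chromosome, at 203 to 1364 CPM, against 0.410 to 1.26 in the others. A row outside the Ensembl genes held 133 to 307 CPM in 5 of the 6 tdT+ libraries but 2.05 CPM in the library labelled tdT+CD49f+CD34+ replicate 2, below the 2.54 to 4.89 CPM of the tdTneg libraries. Member values between the populations and in the CD49f+CD34+ sort are given with and without the 3 libraries high in hepatocyte transcripts, a choice made after seeing the data. Without them the tdT+CD49f+CD34+ group is replicate 3 alone, assumed to vary like the other groups, and every value given without the 3 libraries carries that limit.

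Against the markers of the sort, Ly6a, the gene of SCA-1, lay at 153 to 294 CPM in the SCA-1+ libraries and at 2.46 to 59.2 in the others, and Cd34 lay at 468 to 1130 CPM in the CD49f+CD34+ libraries, at 320 and 383 in tdTnegCD49f+CD34+SCA-1+ and at 22.3 to 35.7 in tdT+CD49f+CD34+SCA-1+ libraries. Fat cells, the other skin cells that share much of the lipid machinery, were checked by 6 markers (Adipoq, Lep, Retn, Cfd, Plin1, Cidec): their summed level did not pass 1.20 CPM in any library, and Adipoq, Cfd, Cidec and Retn were at 0 in both tdTnegCD49f+CD34+SCA-1+ libraries. In these bulk libraries fewer cells of a type and less RNA per cell cannot be told apart.

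Promoter sequence was read from RefSeq (GRCm38.p6) for 3 members on whose levels the results turn and whose RefSeq start lies near the Ensembl gene start: Soat1, which nearly vanished from 1 library, Scd3, which was high in 2, and Plin2, among the most abundant. RefSeq promoter entries were found for 6 of the 10 members. Each line gives the 250 bases before the start, 5′ to 3′ on the gene's strand, with capitals marking any match to AGGTCA (the nuclear receptor half-site), AGGTCANAGGTCA (a pair of half-sites, as PPAR and RXR bind), TTGCNNAA (C/EBP) or CCAAT, on either strand. The windows are chr1:156474329-156474578 on the minus strand for Soat1, chr19:44203038-44203287 on the plus strand for Scd3 and chr4:86670060-86670309 on the minus strand for Plin2.
Soat1: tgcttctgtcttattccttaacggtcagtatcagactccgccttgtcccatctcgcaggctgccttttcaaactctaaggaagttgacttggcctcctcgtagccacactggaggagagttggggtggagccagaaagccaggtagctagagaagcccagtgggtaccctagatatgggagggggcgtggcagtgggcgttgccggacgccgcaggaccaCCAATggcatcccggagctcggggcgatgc
Scd3: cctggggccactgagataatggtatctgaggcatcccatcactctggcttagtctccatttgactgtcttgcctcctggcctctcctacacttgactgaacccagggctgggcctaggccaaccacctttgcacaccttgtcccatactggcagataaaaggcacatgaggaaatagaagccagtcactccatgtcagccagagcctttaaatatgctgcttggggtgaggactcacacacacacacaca
Plin2: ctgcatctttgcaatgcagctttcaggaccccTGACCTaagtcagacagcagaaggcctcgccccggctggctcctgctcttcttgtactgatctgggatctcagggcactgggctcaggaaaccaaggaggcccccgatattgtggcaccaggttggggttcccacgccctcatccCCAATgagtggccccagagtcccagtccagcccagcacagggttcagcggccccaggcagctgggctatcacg
Soat1 held CCAAT from position -30, Plin2 held CCAAT from -73 and the half-site on the opposite strand, as TGACCT, from -218, and Scd3 held none of the 4. In 32851 promoters of the same length, 14.02% held the half-site, 0.0335% the paired site, 9.56% TTGCNNAA and 33.8% CCAAT, so both matched motifs are common. These are matches of letters, not sites of binding.

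Divided by exonic length, the members fell into 2 tiers. The highest median levels over the 11 libraries were those of Mgst1 (23.2 normalised CPM per kb), Plin2 (19.6) and Dgat2 (15.2), which many cell types express. The others lay far lower: Soat1 had a median of 1.73 CPM per kb, Cidea 1.19, Awat2 1.15, Pparg 0.943, Elovl3 0.673, Mc5r 0.609 and Scd3 0.281. The lowest Dgat2 value lay above the highest Soat1 value, and all other neighbours in this order overlapped. Mgst1 ranged from 9.16 to 159 CPM per kb, Plin2 from 5.52 to 28.5 and Dgat2 from 6.30 to 64.0, while Soat1 reached 2.38. Scd3, lowest by its median, reached 12.5 CPM per kb in its highest library.

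**Figure D1:**
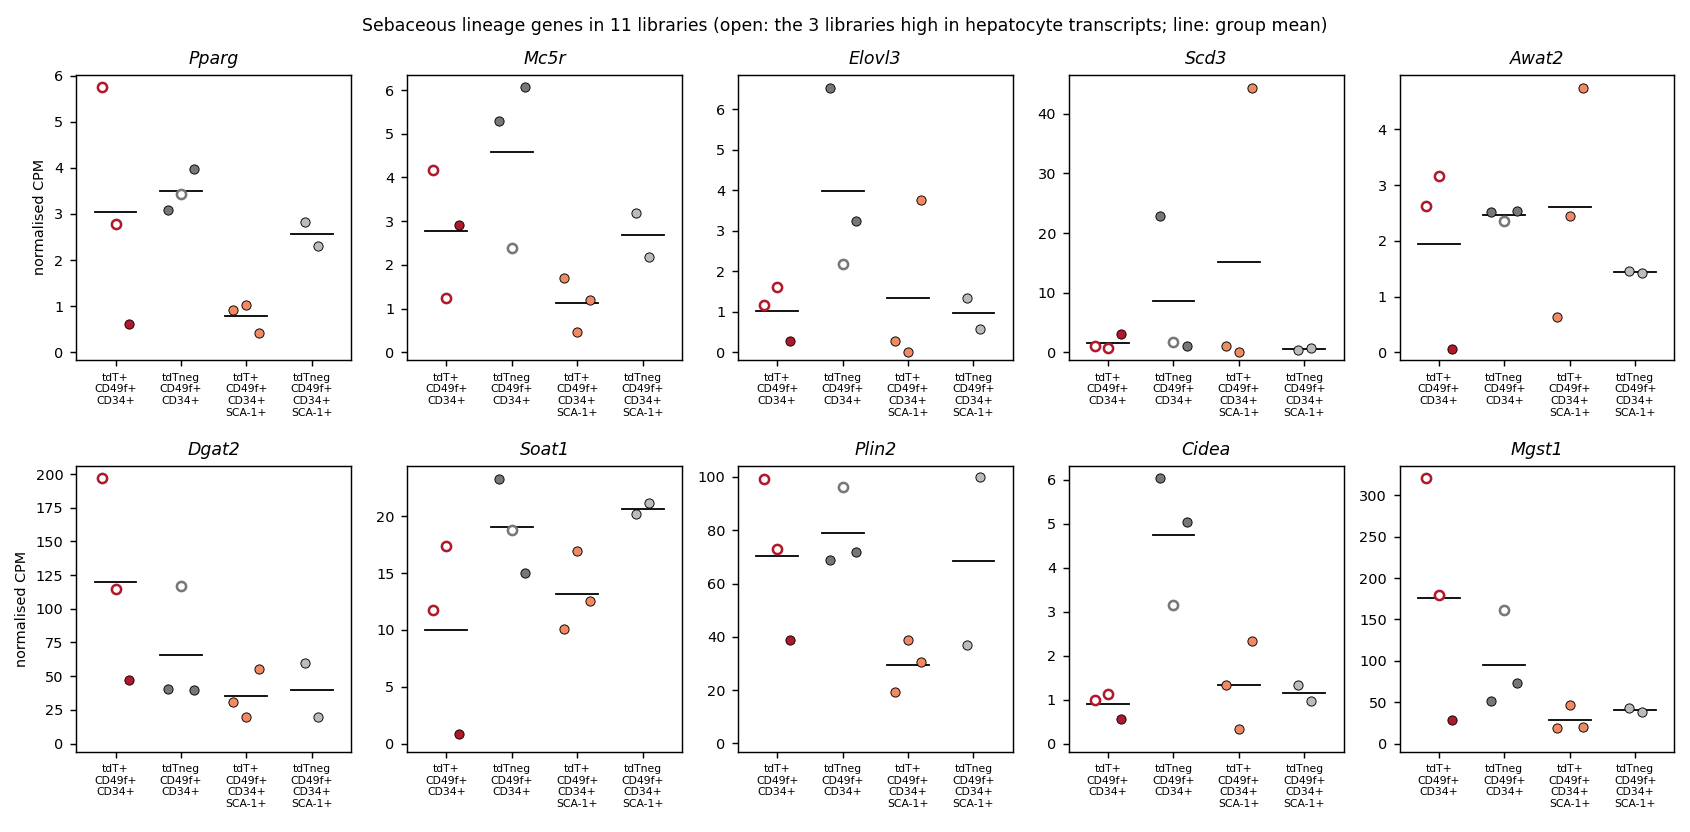
Normalised CPM (linear axis from 0) of each member in the 11 libraries by sorted group; each point is a library, the line is the group mean, and open points are the 3 libraries high in hepatocyte transcripts. The highest Dgat2 and Mgst1 values are open points, Soat1 is at 0.827 CPM in tdT+CD49f+CD34+ replicate 3, and Scd3 is high in 2 libraries of different groups.

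The regulator Pparg (ENSMUSG00000000440, chr6:115360951-115490399, plus strand, GRCm38) encodes the nuclear receptor PPARγ, which drives the lipid programme of sebocytes and fat cells. Its level was 5.76, 2.79 and 0.606 normalised CPM in tdT+CD49f+CD34+ replicates 1 to 3, 3.08, 3.44 and 3.98 in tdTnegCD49f+CD34+, 0.906, 1.02 and 0.413 in tdT+CD49f+CD34+SCA-1+ and 2.82 and 2.30 in tdTnegCD49f+CD34+SCA-1+ libraries. The low libraries were thus the 3 of tdT+CD49f+CD34+SCA-1+ cells and tdT+CD49f+CD34+ replicate 3. Between the tdT+ and tdTneg SCA-1+ libraries there was no overlap, yet the difference did not pass the test (log2 fold change -1.71, SE 0.77, edgeR adjusted p = 0.346).

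Mc5r (ENSMUSG00000007480, chr18:68337596-68342446, plus strand) encodes the melanocortin receptor through which melanocortin peptides stimulate sebum output. It stood at 4.17, 1.23 and 2.92 CPM in tdT+CD49f+CD34+, 5.29, 2.38 and 6.07 in tdTnegCD49f+CD34+, 1.71, 0.454 and 1.19 in tdT+CD49f+CD34+SCA-1+ and 3.20 and 2.18 in tdTnegCD49f+CD34+SCA-1+ libraries. As for Pparg, all 3 tdT+ SCA-1+ values lay below both tdTneg SCA-1+ values, without passing the test (-1.25, SE 0.69, edgeR adjusted p = 0.466). Of the 6 other melanocortin receptor and accessory genes listed, 2 passed the filter and none was called in any of the 4 comparisons. Mc1r, the pigment cell receptor, did not exceed 0.454 CPM. Mrap, an accessory protein of the adrenal receptor, was at 9.47, 1.98 and 3.73 CPM in the 3 libraries high in hepatocyte transcripts and at most 0.126 elsewhere.

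Among the enzymes that shape the fatty acid chain, Elovl3 (ENSMUSG00000038754, chr19:46131897-46135694, plus strand), an elongase of very long saturated and monounsaturated chains in sebaceous glands, was at 1.18, 1.61 and 0.276 CPM in tdT+CD49f+CD34+ and 6.53, 2.17 and 3.24 in tdTnegCD49f+CD34+ libraries. In SCA-1+ sorts it was at 0.266, 0 and 3.77 CPM in tdT+ and 1.33 and 0.586 in tdTneg libraries; a count of 0 in the library of 17409131 counts allows up to 0.172 CPM, counting error only. All tdTnegCD49f+CD34+ values lay above all tdT+CD49f+CD34+ values, but the fitted difference was not called (-1.96, SE 1.35, edgeR adjusted p = 0.735). Its exons overlap those of Pitx3 on the other strand by 10 bases.

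Scd3 (ENSMUSG00000025202, chr19:44203269-44244016, plus strand) is the stearoyl-CoA desaturase best known from the sebocyte. It held 22.8 CPM (1105 counts) in tdTnegCD49f+CD34+ replicate 1 and 44.4 CPM (860 counts) in tdT+CD49f+CD34+SCA-1+ replicate 3. In the other 9 libraries it was low: 0.997, 0.696 and 3.03 CPM in tdT+CD49f+CD34+, 1.77 and 0.976 in tdTnegCD49f+CD34+ replicates 2 and 3, 1.01 and 0.0568 in tdT+CD49f+CD34+SCA-1+ replicates 1 and 2 and 0.443 and 0.754 in tdTnegCD49f+CD34+SCA-1+ libraries. The 2 high libraries belong to different sorts, tdT states and ages, and no contrast of groups separates them from the rest.

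Scd1 is the widely expressed desaturase with which Scd3 is most easily confused. Of the 50-base words in Scd3 transcripts, 6.57% also occur in other genes, chiefly Scd1, so a small share of reads could have been counted for either. Per 100 reads of Scd1 there were 6.62 and 17.3 of Scd3 in the 2 high libraries and between 0.0430 and 3.09 in the other 9. Scd1 was highest where hepatocyte transcripts were high, at 1404, 785 and 1222 CPM, where Scd3 was at 0.997, 0.696 and 1.77 CPM. Among the other 8 libraries the highest Scd1 values, 345 and 257 CPM, were those of the 2 libraries high in Scd3, and the rest lay between 98.1 and 255.

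3 other genes, named after their values were seen, were high in the same 2 libraries as Scd3. Awat1, a wax synthase, was at 2.38 CPM in tdTnegCD49f+CD34+ replicate 1 and 7.28 in tdT+CD49f+CD34+SCA-1+ replicate 3, and at most 0.728 elsewhere. Pnpla5, a lipid droplet lipase, was at 2.40 and 6.30 CPM there and at most 0.545 elsewhere. Aadacl4, of the arylacetamide deacetylase family, was at 1.41 and 7.90 CPM there and at most 0.441 elsewhere. Of the other members, Elovl3 (6.53 and 3.77 CPM) and Cidea (6.03 and 2.32 CPM) were each highest of their sort in the same 2 libraries, and Awat2 was highest in the second of them (4.75 CPM). Pparg was at 3.08 and 0.413 CPM there.

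**Figure D2:**
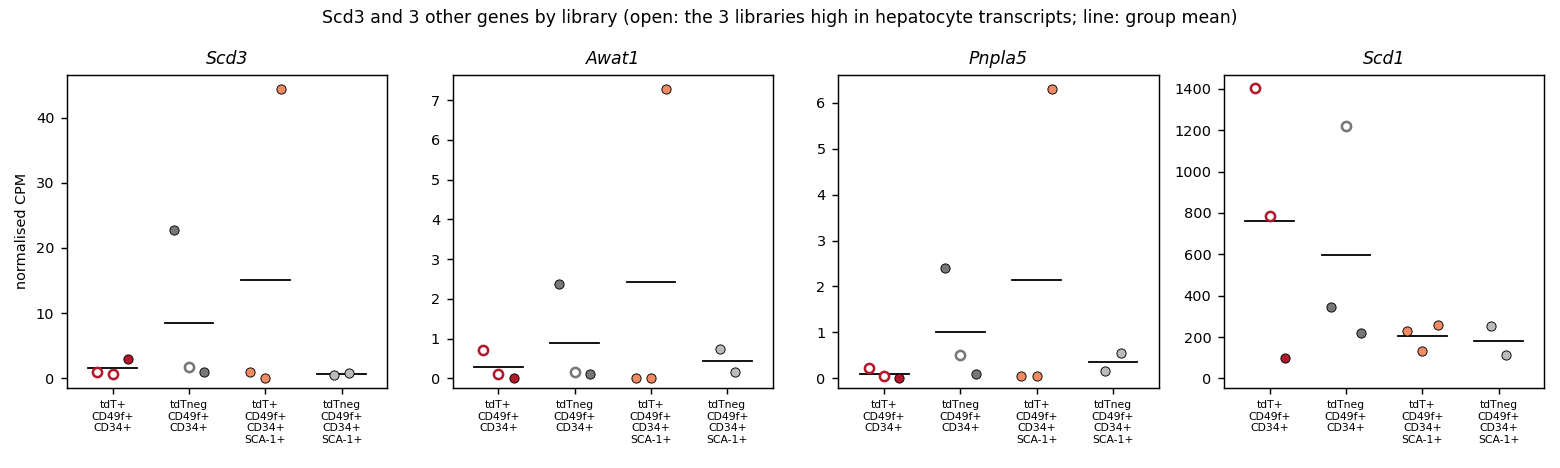
Normalised CPM (linear axis from 0) of Scd3, Awat1, Pnpla5 and Scd1 by sorted group, a point per library with the group mean as a line; open points are the 3 libraries high in hepatocyte transcripts. Scd3, Awat1 and Pnpla5 are high in tdTnegCD49f+CD34+ replicate 1 and tdT+CD49f+CD34+SCA-1+ replicate 3, whereas the highest Scd1 values are the open points.

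Of the esterifying enzymes, Awat2 (ENSMUSG00000031220, chrX:100402221-100442717, minus strand), which makes wax esters from fatty alcohols, was at 2.63, 3.16 and 0.0551 CPM in tdT+CD49f+CD34+ and at 2.52, 2.35 and 2.54 in tdTnegCD49f+CD34+ libraries. It was at 0.640, 2.44 and 4.75 CPM in tdT+CD49f+CD34+SCA-1+ and at 1.46 and 1.42 in tdTnegCD49f+CD34+SCA-1+ libraries. The lowest value is 1 count, in tdT+CD49f+CD34+ replicate 3, where 3 counts would be 0.165 CPM. The groups overlapped in every comparison.

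Soat1 (ENSMUSG00000026600, chr1:156424525-156474331, minus strand), the acyltransferase that makes cholesterol esters, ran from 10.05 to 23.3 CPM outside 1 library. It was at 11.7 and 17.4 CPM in tdT+CD49f+CD34+ replicates 1 and 2, 23.3, 18.8 and 14.98 in tdTnegCD49f+CD34+, 10.05, 17.0 and 12.5 in tdT+CD49f+CD34+SCA-1+ and 20.2 and 21.2 in tdTnegCD49f+CD34+SCA-1+ libraries. In tdT+CD49f+CD34+ replicate 3 it was at 0.827 CPM, from 15 counts. The same library held the lowest Awat2, and its Pparg was the second lowest of the 11, whereas its Plin2, Dgat2 and Mgst1 (38.7, 46.8 and 28.3 CPM) lay within the range of the other groups.

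Dgat2 (ENSMUSG00000030747, chr7:99153658-99182719, minus strand), which adds the last fatty acid to triglycerides in skin, liver and fat, was at 197, 115 and 46.8 CPM in tdT+CD49f+CD34+ and 40.2, 117 and 39.6 in tdTnegCD49f+CD34+ libraries. In SCA-1+ sorts it was at 31.0, 19.4 and 55.2 CPM in tdT+ and 60.1 and 19.6 in tdTneg libraries. Its 3 highest libraries were the 3 high in hepatocyte transcripts, and the remaining 8 spanned 19.4 to 60.1 CPM.

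The droplet coat gene Plin2 (ENSMUSG00000028494, chr4:86648386-86670060, minus strand), present on lipid droplets of nearly every cell, was at 99.3, 73.2 and 38.7 CPM in tdT+CD49f+CD34+ and 68.9, 96.2 and 71.8 in tdTnegCD49f+CD34+ libraries. It was at 19.4, 38.8 and 30.7 CPM in tdT+CD49f+CD34+SCA-1+ libraries and at 36.9 and 100.2 in tdTnegCD49f+CD34+SCA-1+ replicates 1 and 2. Of its 50-base words, 2.57% occur in other genes, chiefly Gm12551.

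Cidea (ENSMUSG00000024526, chr18:67343604-67367785, plus strand) promotes fusion and growth of lipid droplets and is needed for normal sebum lipids. It was at 0.997, 1.12 and 0.551 CPM in tdT+CD49f+CD34+ and at 6.03, 3.15 and 5.05 in tdTnegCD49f+CD34+ libraries, with no overlap. In SCA-1+ sorts it was at 1.33, 0.341 and 2.32 CPM in tdT+ and 1.33 and 0.963 in tdTneg libraries, which overlapped.

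Mgst1 (ENSMUSG00000008540, chr6:138140316-138156755, plus strand), a microsomal glutathione S-transferase abundant in sebaceous gland and liver, was at 321, 180 and 28.3 CPM in tdT+CD49f+CD34+ and 51.5, 162 and 73.1 in tdTnegCD49f+CD34+ libraries. It was at 18.4, 46.7 and 20.3 CPM in tdT+CD49f+CD34+SCA-1+ and 42.4 and 38.2 in tdTnegCD49f+CD34+SCA-1+ libraries. As for Dgat2, the 3 highest libraries were those high in hepatocyte transcripts.

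**Figure D3:**
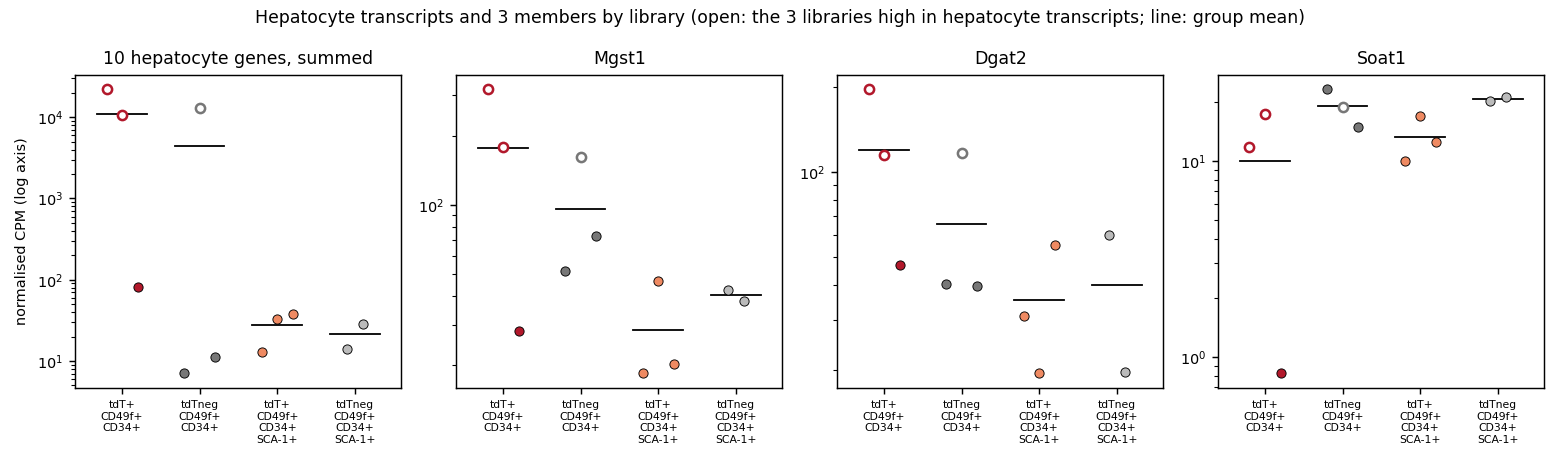
Summed normalised CPM of 10 hepatocyte genes beside Mgst1, Dgat2 and Soat1 in the 11 libraries (log axes), by sorted group, with group means as lines. The 3 open points, tdT+CD49f+CD34+ replicates 1 and 2 and tdTnegCD49f+CD34+ replicate 2, are highest for the hepatocyte genes, Mgst1 and Dgat2 but not for Soat1.

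Between the populations, SCA-1+ against the CD49f+CD34+ sort, averaged within tdT state, 1 of the 10 members was called lower and none higher, against 11.6% of all 20307 genes called in either direction, 6.79% lower and 4.77% higher. Without the 3 libraries high in hepatocyte transcripts 2927 genes were called, against 2347 with them. An unadjusted p under 0.05 was reached by 4 of the 10 members and by 34.4% of all genes. Mgst1 fell by 1.94 on the log2 scale (SE 0.57, edgeR adjusted p = 0.0414), with 28.3 to 321 CPM in CD49f+CD34+ and 18.4 to 46.7 CPM in SCA-1+ libraries. A call needed both an adjusted p under 0.05 and a log2 fold change beyond 1 in size. No member had 5 SCA-1+ libraries apart from the 6 others, while 10.8% of all genes did. The median log2 fold change was -0.78 over the members and -0.09 over all genes tested.

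Mgst1 was not called without the 3 libraries high in hepatocyte transcripts (-0.30, SE 0.30, edgeR adjusted p = 0.540). In that fit tdT+CD49f+CD34+ replicate 3 stood alone for its group, and its Mgst1 level, 28.3 CPM, was the lowest of the CD49f+CD34+ sort, below the 51.5 and 73.1 of the remaining tdTneg libraries. The call was lost on omission of any of 8 of the 11 libraries (edgeR adjusted p from 0.0563 to 0.169), and among the 32-week libraries alone the value was -1.63 (edgeR adjusted p = 0.346), with tdTnegCD49f+CD34+SCA-1+ represented by replicate 2 alone.

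Pparg, Dgat2, Mc5r and Plin2 had values of -1.20, -1.24, -1.03 and -0.73 between the populations (SE 0.53, 0.50, 0.48 and 0.32). None passed the test in the fit of all libraries (edgeR adjusted p = 0.141, 0.108, 0.159 and 0.138). Dgat2 was called by DESeq2 and by edgeR without a filter, as given below. For Pparg, Dgat2 and Plin2 the values became -0.03, -0.19 and -0.20 without the 3 libraries. There the tdT+CD49f+CD34+ value is that of replicate 3 alone, the lowest library of its sort for Pparg and Plin2. For Mc5r the value moved from -1.03 to -1.20 without the 3 libraries, with replicate 3 again alone in its group. Pparg passed the test on omission of tdT+CD49f+CD34+ replicate 3 (-1.45, edgeR adjusted p = 0.0287).

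Soat1, Awat2, Elovl3, Scd3 and Cidea lay between -0.83 and 0.26 in this comparison. Their 95% intervals, such as -0.94 to 1.47 for Soat1 and -3.14 to 2.57 for Scd3, leave room for changes of either sign. Without the 3 libraries, Soat1 was called higher in SCA-1+ cells (2.06, SE 0.30, edgeR adjusted p = 0.00121) and Awat2 was at 2.34 (edgeR adjusted p = 0.0893). The tdT+CD49f+CD34+ group was then replicate 3 alone, in which both are at their lowest. With all other libraries and without replicate 3, Soat1 was at -0.012 (edgeR adjusted p = 0.982).

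**Figure D4:**
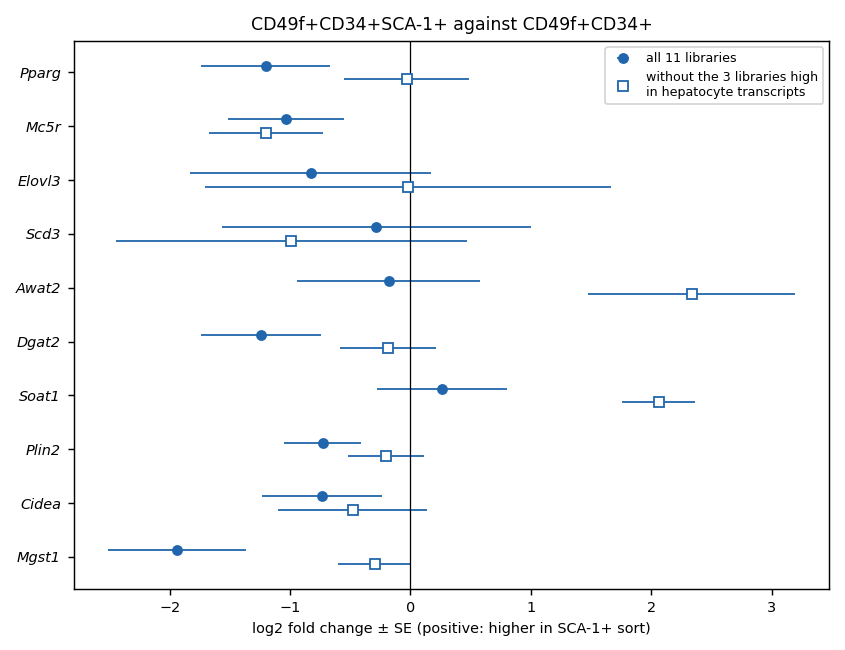
Log2 fold change with its SE for each member, SCA-1+ against the CD49f+CD34+ sort, from the fit of all 11 libraries (filled circles) and without the 3 libraries high in hepatocyte transcripts (open squares). Mgst1 moves from -1.94 to -0.30 and Soat1 from 0.26 to 2.06, while Mc5r is at -1.03 and -1.20.

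Between tdT+CD49f+CD34+ and tdTnegCD49f+CD34+ cells no member was called by edgeR, where 0.00985% of all genes were called, that is 2 of 20307, and 8.42% had an unadjusted p under 0.05. Of the members, 1 had an unadjusted p under 0.05: Cidea, with a log2 fold change of -2.41 (SE 0.68, edgeR adjusted p = 0.353). DESeq2 called it (-2.32, adjusted p = 0.0159), in a fit that called 377 genes. On omission of the library labelled tdT+CD49f+CD34+ replicate 2, Cidea was at -2.61 (edgeR adjusted p = 0.552), and without the 3 libraries high in hepatocyte transcripts at -3.32 (edgeR adjusted p = 0.383). Cidea and Elovl3 were the 2 members whose tdT+ and tdTneg libraries did not overlap, as was the case for 16% of all genes. Marker genes of other cells were summed in the same libraries: the summed level of 4 leukocyte genes was 51.4 to 108 CPM in tdT+ and 6.22 to 33.2 in tdTneg libraries, that of 6 T cell genes 31.3 to 60.5 against 19.5 to 26.2, and that of 6 suprabasal genes 1729 to 4350 against 511 to 1758, with 4, 4 and 4 genes under an unadjusted p of 0.05 and none called. Thy1 was the most abundant T cell gene in all these libraries, at 16.9 to 38.4 CPM in tdT+ and 18.0 to 23.8 in tdTneg. Cd3e was at 3.49 to 7.87 against 0.317 to 0.829 CPM. Cd3d, Cd3g and Trac did not overlap either, whereas Cd4 did. The sum of 6 Langerhans cell and macrophage genes was 450 to 669 CPM in tdT+ and 357 to 417 in tdTneg libraries. Of these, 3 genes were under an unadjusted p of 0.05. Most of each sum was Epcam, which overlapped, at 313 to 478 CPM in tdT+ and 336 to 377 in tdTneg libraries. The sums of 5 melanocyte genes (25.4 to 53.0 against 57.1 to 63.1) and of 5 keratinocyte genes (12879 to 16146 against 17826 to 19314) were lower in every tdT+ library, the direction of Cidea and Elovl3. Of 7 bulge genes, 2 had an unadjusted p under 0.05, with a median log2 fold change of -0.49 over the 7. Of 10 markers of sebaceous progenitors and ducts, 4 had, with a median of 0.35 over the 10. None was called, and the summed levels of both lists overlapped. The part of all these marker genes in the values of Cidea and Elovl3 was not tested.

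The remaining members lay between -2.44 for Scd3 and 0.88 for Mgst1 in this sort, with 95% intervals that all included 0. Scd3 was at 0.19 without tdTnegCD49f+CD34+ replicate 1, its highest library in this sort. Mgst1 and Dgat2 were the 2 with positive values (0.88 and 0.87), and 2 of the 3 tdT+ libraries are among those high in hepatocyte transcripts. Without those libraries Mgst1 was at -1.14 and Dgat2 at 0.23, and Soat1 was called (-4.53, SE 0.55, edgeR adjusted p = 0.0147) on the value of 1 tdT+ library.

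Between tdT+ and tdTneg CD49f+CD34+SCA-1+ cells again no member was called, against 2.31% of all genes (470, with 0.251% higher and 2.06% lower), while 14.6% of all genes had an unadjusted p under 0.05. Plin2 was the member under that level, at -1.21 (SE 0.46, edgeR adjusted p = 0.255), and it was at -0.37 without tdTnegCD49f+CD34+SCA-1+ replicate 2, its highest library. DESeq2 called none either. Mc5r, Pparg and Soat1 had all 3 tdT+ libraries below both tdTneg libraries, as 33% of all genes had their libraries apart. Soat1 was at -0.65 (SE 0.80, edgeR adjusted p = 0.808). Scd3 was at 4.66 (SE 2.35, edgeR adjusted p = 0.413) and at -0.10 without tdT+CD49f+CD34+SCA-1+ replicate 3.

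These 2 sides differ in other cells too. The summed level of 5 endothelial genes was 1458 and 1547 CPM in the tdTnegCD49f+CD34+SCA-1+ libraries and 27.8 to 55.8 in the tdT+ ones, and each of the 5 had counts in both groups. That of 6 T cell genes was 116 and 123 CPM in tdTneg and 310 to 847 in tdT+ libraries. Of these genes, Thy1 was at 86.5 and 93.7 CPM in tdTneg and at 173 to 347 in tdT+ libraries. Cd3e was at 9.78 and 12.6 against 47.1 to 117 CPM. The sums of the leukocyte genes (88.4 and 197 against 260 to 477 CPM), of the keratinocyte genes (18503 and 21807 against 25786 to 32733), of the suprabasal genes (3230 and 7365 against 7550 to 10635) and of 6 Langerhans cell and macrophage genes (699 and 913 against 414 to 576) did not overlap between tdTneg and tdT+ libraries either. In the last list Epcam overlapped, at 246 and 304 CPM in tdTneg and 187 to 279 in tdT+ libraries. Of 7 bulge genes, 4 were called lower in tdT+ cells and none higher, the direction of Pparg, Mc5r, Plin2 and Soat1. Cd34 fell by 3.68, Tcf7l1 by 3.54, Lhx2 by 2.69 and Lgr5 by 2.31 on the log2 scale. Their part in the values of Pparg, Mc5r, Plin2 and Soat1 was not tested.

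**Figure D5:**
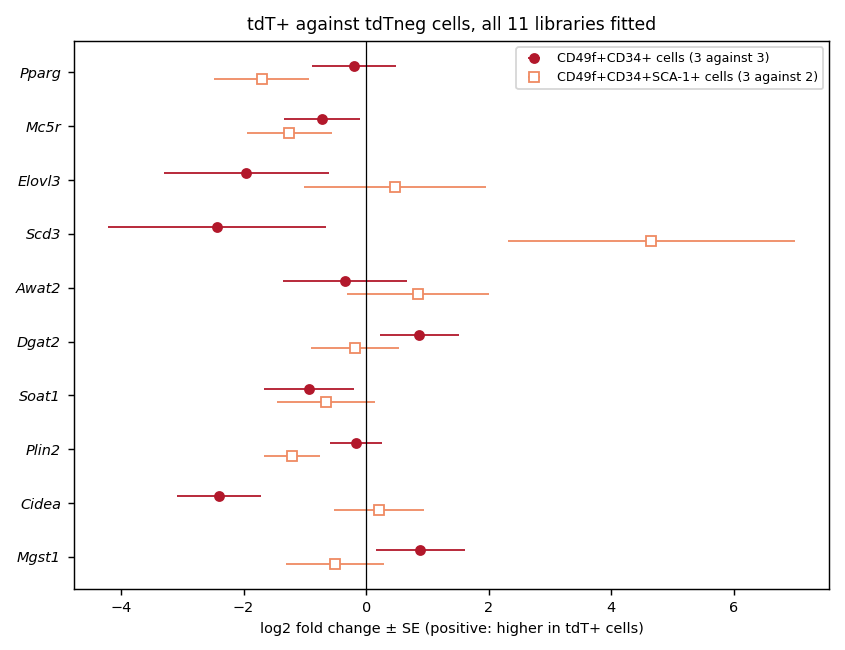
Log2 fold change with its SE for each member, tdT+ against tdTneg cells, for the CD49f+CD34+ sort (circles, 3 against 3 libraries) and the SCA-1+ sort (squares, 3 against 2), all from the fit of 11 libraries. Cidea is at -2.41 in the former and 0.22 in the latter, and no member passed the test in either.

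The effect of tdT was also compared between the populations, in a test of that difference. No member was called, while 0.389% of all genes (79) were and 12.4% had an unadjusted p under 0.05. Of the members, 2 were under that level: Scd3 (7.10, SE 2.94, edgeR adjusted p = 0.369) and Cidea (2.62, SE 1.01, edgeR adjusted p = 0.326). The Scd3 value combines its 2 high libraries, and was 4.46 without the one and 2.33 without the other. The Cidea value lay between 1.97 and 2.99 on omission of each library in turn.

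Over the 45 pairs of members, the correlation of log2 CPM across the 11 libraries was positive in 38, had a median of 0.38 and ran from -0.29 to 0.88, as a description, since the libraries share depth, groups and the 3 that stand apart. The closest pairs were Elovl3 with Cidea (r = 0.88), Awat2 with Soat1 (0.85) and Pparg with Mgst1 (0.80). Among the members, Scd3 was closest to Elovl3 (0.68) and Cidea (0.59), and the most distant pair was Pparg with Scd3 (-0.29).

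Among all tested genes, those most like each member over the 11 libraries were as follows, with n = 11 and no test. Mgst1 was closest to Phyh, Gsta3 and Amy1 (Pearson r = 0.97 for each), and Dgat2 to Agxt2 (0.96), Gldc (0.95) and Adamtsl2 (0.95). Plin2 was closest to Scamp5, Timm10b and Atp6v0c (0.95 to 0.96). Elovl3 was closest to Eif2ak3 (0.94), Ccdc3 (0.91) and Fa2h (0.89), a hydroxylase of fatty acids. Scd3 was closest to Srsf4 (0.90), Naa80 (0.88) and Aadacl4 (0.87). Soat1 was closest to Aunip (0.98), Polq (0.96) and Gm48069 (0.96), Pparg to Pianp (0.95), Pclo (0.94) and Gm35333 (0.94), Mc5r to Vldlr (0.95), Spaca1 (0.95) and Dag1 (0.93), Awat2 to Gm26645 (0.94), Gm10658 (0.93) and Tomm6os (0.91), and Cidea to Frg2f1 (0.96), Arxes1 (0.96) and Foxo6 (0.93). By rank correlation 4 of the 30 were again among the 3 closest.

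Calls among other genes of the same pathways are to be read against the share of all genes called between the populations, 4.77% higher and 6.79% lower. A count of 1 or 2 in lists this short is no result about the list. Markers of other cells moved in the same comparison. Called higher in SCA-1+ cells were 5 of 6 T cell genes, 4 of 4 leukocyte genes and 3 of 6 Langerhans cell and macrophage genes. So were 2 of 5 keratinocyte genes and 4 of 6 suprabasal keratinocyte genes, and none of these lists' genes was called lower. Epcam, of the Langerhans cell and macrophage list, lay lower without overlap, short of the fold threshold (-0.56, edgeR adjusted p = 0.0300). All 7 bulge genes and 2 of 5 melanocyte genes (Dct and Tyrp1) were called lower. All 10 hepatocyte genes were too. Their list was written after their level in 3 CD49f+CD34+ libraries was seen, so these calls are no result about the populations. In tdTnegCD49f+CD34+ replicates 1 and 3 they summed to 7.07 and 11.05 CPM, against 12.9 to 38.0 in SCA-1+ libraries. The part of these markers in the values of the lipid genes was not tested. Several of the latter were high in the 3 libraries high in hepatocyte transcripts, such as Elovl2 (38.6 to 78.0 CPM there and at most 0.276 elsewhere) and Fads2 (53.2 to 120 and at most 7.40). Of 11 further acyltransferase and wax genes, 2 were called lower in SCA-1+ cells and none higher, with a median of -1.37. Agpat2, which makes phosphatidic acid on the way to triglycerides, was the called gene without overlap (-1.49, edgeR adjusted p = 0.0215), and it was at -0.65 (adjusted p = 0.105) without the 3 libraries. Of 12 further desaturases, elongases and a hydroxylase, 3 were called lower and 1 higher.

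Within that list, Fads1, the Δ5 desaturase of polyunsaturated fatty acids, was lower in SCA-1+ cells (-2.83, edgeR adjusted p = 0.00510) and also without the 3 libraries (-1.43, edgeR adjusted p = 0.000872). Elovl7, an elongase of long chains, was higher (1.69, edgeR adjusted p = 0.000484), and at 1.69 without them too. Its level was 40.2 to 96.4 CPM in SCA-1+ and 9.89 to 32.4 in CD49f+CD34+ libraries.

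Of 6 regulators and enzymes of fatty acid synthesis, 1 was called lower and none higher. Mlxipl, the carbohydrate-responsive factor ChREBP, was at -4.77 (edgeR adjusted p = 0.00763) and at -2.19 (edgeR adjusted p = 0.00169) without the 3 libraries. Of 12 further droplet and lipolysis genes, 9 passed the filter and 1 was called, higher: Mgll, the monoglyceride lipase (1.28, edgeR adjusted p = 0.0302), at 53.8 to 129 CPM against 13.7 to 52.8, and at 1.97 (edgeR adjusted p = 0.00370) without the 3 libraries. Of 14 partners and targets of PPARs, 1 was called higher and 1 lower. Fabp5, the epidermal fatty acid binding protein, was higher (1.64, edgeR adjusted p = 0.0238), at 53.3 to 180 CPM against 10.8 to 43.8, and at 2.43 (edgeR adjusted p = 0.00573) without the 3 libraries.

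Of 5 genes of glutathione and microsomal metabolism, 3 were called higher in SCA-1+ cells and none lower. The 2 not called were Mgst3 (0.57, edgeR adjusted p = 0.0508) and Gpx4 (-0.27, edgeR adjusted p = 0.309). Gsta4, a glutathione transferase, rose by 3.33 (edgeR adjusted p = 0.00751), from between 0.276 and 7.61 CPM to between 13.4 and 47.0. Ptges, the prostaglandin E synthase of the same superfamily as Mgst1, rose by 1.43 (edgeR adjusted p = 0.000206). Both were called without the 3 libraries as well (5.17 and 1.51). Of 10 markers of sebaceous progenitors and ducts, 1 was called higher and none lower in the fit of all libraries, and none either way without the 3.

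In the tdT comparisons no gene of these 8 lists was called in the CD49f+CD34+ sort, where 0.00985% of all genes were, and 2 were called in the SCA-1+ sort, a share of the tested genes near the 2.31% of all genes. These 2, Lipe and Mgst3, are given as values and are no result about their lists. In SCA-1+ cells Lipe, the hormone-sensitive lipase, fell by 1.83 (SE 0.33, edgeR adjusted p = 0.0178): it was at 7.03, 6.98 and 8.98 CPM in tdT+ and at 27.7 and 26.8 in tdTneg libraries. Lipe was also the listed lipid gene whose tdT effect differed between the populations (-2.63, edgeR adjusted p = 0.0419, beside 0.389% of all genes called), a call lost with the replicate number as a block (edgeR adjusted p = 0.0740). Mgst3 rose by 1.34 in the same SCA-1+ comparison (edgeR adjusted p = 0.0364, 0.0661 with the block), at 53.4 to 74.6 against 20.6 and 28.3 CPM. Endothelial, T cell and bulge genes differ between the same libraries: 4 of 7 bulge genes were called lower in tdT+ SCA-1+ cells, and Cd34 and Tcf7l1 were also called in the difference of tdT effects, where Lipe was. Their part in these results was not tested.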

How the data were processed

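RNA of 11 libraries of sorted epidermal cells (TruSeq RNA v2, a kit that does not mark strand) was measured. The authors aligned reads with STAR to mm10 and deposited counts per Ensembl 96 gene from featureCounts, not normalised; DESeq2 1.18.1 is named in the submitters' processing notes, and the strand setting is not given in the sources used here. All 55536 identifiers were named from GENCODE M21 (Ensembl 96, GRCm38). 1 further row, with no Ensembl identifier, entered neither totals nor tests.

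A model with a mean for each group was fitted to all libraries at once with edgeR 4.0.16 on R 4.3.3 (TMM, filterByExpr, quasi-likelihood F-test, Benjamini-Hochberg over 20307 genes). Values are CPM on TMM-scaled library sizes, per kb of merged exons between genes, and log2 CPM used a prior count of 2. Contrasts were the populations averaged within tdT state, tdT+ against tdTneg in each population, and the difference of these. p-values measure the spread between libraries within the groups. The fit takes the libraries as independent, although sorts with the same replicate number were read as sharing a pool of mice. The replicate number as a block is among the alternatives.

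Named genes were all 10 members and, of each related list, genes called between the populations without overlap (at most 4 by size) or called in a tdT comparison. Members and lists were chosen with earlier results of these data known; the hepatocyte list and Awat1, Pnpla5 and Aadacl4 as companions of Scd3 were added after the values were seen. Replicate numbers were read, from the methods, as pools of mice shared by the sorts: across 15 same-number pairs, deviations from group means correlated with a median r of 0.08 (-0.42 to 0.59), against -0.02 over 30 other pairs. On simulated counts edgeR recovered 57% of genes changed by a log2 fold change of 2 between the populations, 34% between tdT states in the CD49f+CD34+ sort and 16% in the SCA-1+ sort. Motifs and shared 50-base words were counted in Python 3.11.15. Alternatives were DESeq2 1.42.0, RLE size factors, other filters, no fold threshold, the replicate block, only the groups compared, only 32-week libraries, omission of each library, and other measures of likeness.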

Additional observations from a re-analysis of the deposited data

Results flagged for a closer look

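The 6 CD49f+CD34+ and the 5 CD49f+CD34+SCA-1+ libraries were each taken over both tdT states. Of 20 sets of member values, 4 had a library far from its neighbours by Dixon's criterion. Its nominal rate of about 1 in 20 assumes independent sets, each from a single normal distribution. These sets pool tdT states, use linear CPM and hold correlated members, so 4 is not a count beyond chance. Groups of 2 or 3 libraries cannot be examined this way. Scd3 was at 22.8 CPM in tdTnegCD49f+CD34+ replicate 1 and at 44.4 CPM in tdT+CD49f+CD34+SCA-1+ replicate 3, in each case far above the others. Awat2 was at 0.0551 CPM in tdT+CD49f+CD34+ replicate 3, from 1 count. Plin2 was at 100.2 CPM in tdTnegCD49f+CD34+SCA-1+ replicate 2.

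The row outside the Ensembl genes, which no comparison used, was above every tdTneg library in 5 of the 6 tdT+ libraries: 133 and 252 CPM in tdT+CD49f+CD34+ replicates 1 and 3, and 254, 224 and 307 CPM in tdT+CD49f+CD34+SCA-1+ replicates 1 to 3. Replicate 2 of tdT+CD49f+CD34+ was at 2.05 CPM (95% Wilson interval 1.49 to 2.83). No member's tdT effect differed between the populations past the test.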

How the results depend on the processing

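Of 756 recomputed member values, 705 kept their direction and their side of the threshold, 34 changed sign, 10 lost a call and 7 gained one; no value that changed sign had been called in the fit of all libraries. Low counts limit the values of Awat2, Mc5r, Elovl3, Pparg, Scd3 and Cidea, each with 10 or fewer counts in at least 1 library. Omission of a tdTnegCD49f+CD34+SCA-1+ library leaves 1 in that group, as does the restriction to 32 weeks; without the 3 libraries high in hepatocyte transcripts tdT+CD49f+CD34+ is 1 library. A lone library is assumed to vary like the other groups.

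Members called between the populations were 1 in the fit of all libraries, 2 with DESeq2 and 2 without a filter (Dgat2 added, adjusted p = 0.0256 and 0.0212), 0 among 32-week libraries and 0 to 2 without 1 library. All genes called there were 2347, 3540 with DESeq2, 3917 without a fold threshold, 299 among 32-week libraries and 1160 to 2510 without 1 library. Between tdT states of CD49f+CD34+ cells members called were 0, 1 with DESeq2 (Cidea) and 1 without the 3 libraries high in hepatocyte transcripts (Soat1). All genes called there were 2, 5 with RLE, 377 with DESeq2, 166 without a filter, 20 with at least 10 counts everywhere, 0 with only the groups compared, 0 at 32 weeks, 34 without the 3 libraries and 0 to 7 without 1. In CD49f+CD34+SCA-1+ cells they were 470, 1230 with DESeq2, 885 without a filter, 885 with only the groups compared, 0 at 32 weeks, 1149 without the 3 libraries and 97 to 700 without 1. For the difference of tdT effects they were 79, 845 with DESeq2, 568 without a filter, 263 with at least 10 counts everywhere, 0 at 32 weeks, 218 without the 3 libraries (1 member, Soat1, 3.81) and 1 to 376 without 1. The cause of these shifts was not tested.

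With the replicate number as a block, the genes called were 4 between tdT states of CD49f+CD34+ cells, and no member's call changed; Elovl3, Dgat2 and Cidea in SCA-1+ cells changed sign, to -0.58, 0.11 and -0.052. At 32 weeks the values that changed sign were Awat2 (0.18) and Scd3 (1.35) between populations, Scd3 (0.43) and Mgst1 (-0.18) between tdT states of CD49f+CD34+ cells, and Dgat2 between tdT states of SCA-1+ cells (0.92) and in the difference (0.89). Without the 3 libraries they were Awat2 between populations (2.34), Mgst1 between tdT states of CD49f+CD34+ cells (-1.14), and Pparg (0.76) and Mgst1 (0.56) in the difference. RLE moved the median of all genes in the difference by -0.12. Without 1 library, values that changed sign ranged, between populations, from -0.56 to 0.082 for Awat2, -0.012 to 0.59 for Soat1 and -2.66 to 1.03 for Scd3. Between tdT states of CD49f+CD34+ cells they ranged from -0.87 to 0.23 for Awat2, -1.04 to 0.29 for Pparg, -3.32 to 0.19 for Scd3 and -0.50 to 0.13 for Plin2. In SCA-1+ cells they ranged from -2.67 to 1.17 for Elovl3, -0.81 to 0.84 for Dgat2, -0.10 to 5.21 for Scd3 and -0.43 to 0.61 for Cidea, and in the difference from -0.71 to 3.15 for Elovl3 and -0.26 to 0.94 for Soat1. Of the 30 genes named as most like a member, 4 were named again by rank correlation and 21 with a prior count of 0.5.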
